A study of Mus musculus with 4 samples.

Results

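The 38 genes described here encode the enzymes, transporters and precursor suppliers that turn a newly attached N-glycan into a mature, sialylated one. They were chosen by gene symbol, as a fixed list of 38 of the 31053 genes in the deposited count tables, and all 38 were present. By step of the pathway, 5 genes act in trimming in the endoplasmic reticulum, 5 encode Golgi mannosidases, 6 branching enzymes, 2 serve core fucosylation, 7 galactose addition, 8 are sialyltransferases and 5 supply sialic acid. Their RNA was measured in single cells by 10x 3′ counting of unique molecular identifiers (UMIs, each marking 1 captured RNA molecule). The cells were sorted as CD31+ CD45-, a gate for endothelial cells that lack the leukocyte marker CD45, from the aorta-gonad-mesonephros region (AGM) of embryonic day 10.5 mouse embryos. The AGM is where the first blood stem cells form from hemogenic endothelium. There were 2 libraries of wild-type embryos (WT) and 2 of embryos of the miR-223-/- genotype (KO), and no other treatment. Nothing in the labels ties each library to embryos of its own, so a p-value here measures library-to-library spread only, part of which can be technical. Libraries are given throughout in the order WT replicate 1, WT replicate 2, KO replicate 1, KO replicate 2.

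An N-glycan is transferred to an asparagine of a new protein as a finished precursor that carries glucose and mannose. Glucosidases and mannosidases trim it while the protein folds, and Golgi enzymes then add branches of N-acetylglucosamine, a fucose on the core, galactose on each branch and sialic acid on the ends. On endothelial and blood cells these ends are read by galectins, selectins and sialic acid-binding receptors. The microRNA miR-223 is known from work in zebrafish to target 2 genes of this pathway, the mannosyltransferase alg2 and the sialyltransferase st3gal2, in endothelium that forms blood.

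The sequences below show matches to bases 2 to 8 of the deleted microRNA in transcripts of the 38 genes, since the genotype comparison rests on its absence. The mature miR-223-3p sequence is from RefSeq (GRCm38.p6, chrX:96242884-96242905, plus strand), with the seed, bases 2 to 8, in capitals. The 7-letter match to that seed, AACTGAC, was searched on the transcript strand of annotated 3′ untranslated regions (3′UTRs; GENCODE M21, GRCm38, matched by gene ID). It occurred in 2 of the 38 genes (5.26%) and in 1834 of 20986 genes overall (8.74%), although the median longest 3′UTR was longer for the 38 genes, at 1626 bases, than for all genes, at 961 bases. The matches lie in the 3′UTR of B4galt1, a galactosyltransferase (chr4:40806045-40806051, minus strand), and of Mgat5, a branching enzyme (chr1:127485394-127485400, plus strand), and neither is followed by an A. The 30-base windows are written 5′ to 3′ with the match in capitals.
miR-223-3p: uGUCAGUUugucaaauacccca
B4galt1: cagccaccaagAACTGACgccctcatggcc
Mgat5: catcaaggggaAACTGACctgacctgtgta
A match describes letters and is not a binding site. The letters AACTGAC are not in the annotated mouse 3′UTR of St3gal2. Shorter and other kinds of match were not searched.

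Depth was 95158639 to 181682389 UMIs per library over 3917 to 11186 barcodes, and 2295, 6885, 4125 and 5872 cells passed the filters. Pairs of libraries shared 8 to 28 cell barcodes. Clusters, built without the 38 genes and without the other glycan genes listed, were named from marker genes. They gave 15502 endothelial-like cells, among them 1352 arterial-like, 2248 venous-like, 1136 sinusoidal or lymphatic-like and 2848 neural capillary-like cells. The others were 302 hemogenic endothelial-like, 111 megakaryocyte-like, 159 erythroid-like, 1351 mesenchymal-like, 433 primordial germ cell-like and 538 neural-like cells, so the sort held cells beside endothelium. An endocardial-like cluster held as few as 4 cells in a library and is not used further, and no cluster could be named sprouting-like. The hemogenic endothelial-like cluster, led by Spi1, Runx1 and Ikzf2, also carried myeloid markers. Of these 6 of 12 were at 5 CPM or more, summed 154 to 450 CPM against 11.9 to 22.2 in endothelial-like cells. Of 12 hematopoietic (blood) progenitor markers 10 reached 5 CPM there, against 5 and 3 in the arterial-like clusters. Their sums were 1121 to 1554 CPM, against 1472 to 1649 in arterial-like cells. The naming rule held no progenitor name, so the name does not separate hemogenic endothelium from blood progenitors. Levels are in CPM, the UMIs of a gene scaled to the total UMIs of its class in a library. A 3′ UMI counts a molecule whatever the length of its transcript. Differences between classes are log2 differences on a scale set from the bulk of the genes, the main scale. Against endothelial-like cells the median gene tested was still at -0.46 in erythroid-like, -0.15 in megakaryocyte-like and -0.12 in primordial germ cell-like cells. The differences come from edgeR's quasi-likelihood test on UMIs summed per library and class. They were called at a Benjamini-Hochberg adjusted p under 0.05 over all genes tested. This test pools the spread between libraries over genes, so a p-value does not rest on the spread of its own gene alone.

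The pathway was not even across the cells of the AGM. Summed over the 38 genes, the level was 1362 ± 59.3 CPM (SD, n = 4 libraries) in arterial-like cells, 1039.5 ± 74.2 in venous-like, 1148 ± 52.0 in hemogenic endothelial-like and 671 ± 42.5 in primordial germ cell-like cells. With this scaling to total UMIs the typical gene was higher in arterial-like than in venous-like cells too. The median log2 difference of all genes tested was 0.21. Of the 31 members that reached 10 CPM in a class, 15 (48.4%) had their highest class mean in arterial-like cells, against 18% of the 10643 genes at that level. In primordial germ cell-like cells 1 of the 31 members (3.23%) peaked, against 23.6% of genes. The classes differ in quality: the median cell held 11495 to 19629 UMIs in arterial-like and 18527 to 29210 in venous-like cells. Only 9.25% of arterial-like cells, but 41.9% of venous-like cells, had under 5% mitochondrial UMIs. The part of these differences in the result was not tested, and refits on cells under 5% are given for the contrasts that use arterial-like cells.

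**Figure D1:**
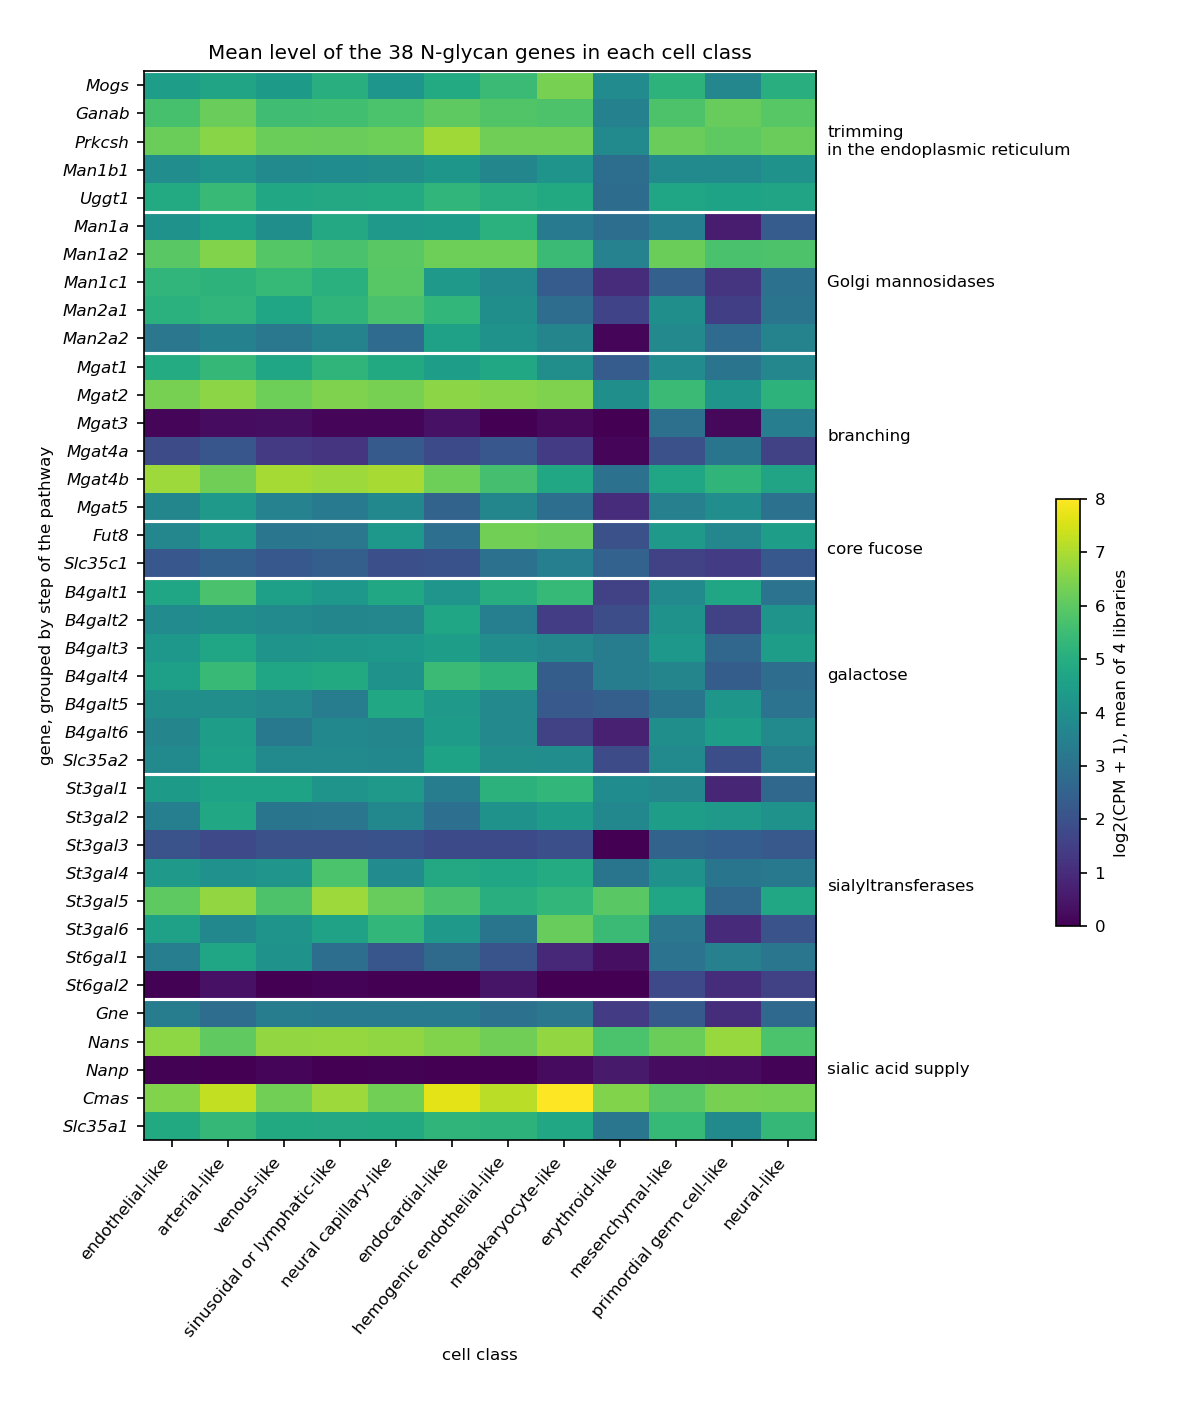
Mean level of each of the 38 genes (rows, grouped by step of the pathway) in each cell class (columns), as log2(CPM + 1) over 4 libraries. Cmas was among the 6 highest members in every class, Fut8 stood out in hemogenic endothelial-like and megakaryocyte-like cells, and Mgat3, St6gal2 and Nanp were near 0 in endothelium.

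Some members were barely present. Nanp, the phosphatase of sialic acid synthesis, gave 13 UMIs in all 15502 endothelial-like cells, St6gal2 gave 15 and Mgat3, which adds the bisecting branch, gave 29. In hemogenic endothelial-like cells Mgat3 had 0 of 6822526 UMIs, which allows up to 0.44 CPM at the 3-UMI limit for counting error. By contrast Nans, the sialic acid synthase, gave 33568 UMIs in endothelial-like cells and Cmas, which activates sialic acid, gave 31254.

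Several members of trimming and early processing had their highest level in arterial-like cells. Prkcsh and Ganab, the subunits of glucosidase II, had their highest class means in arterial-like cells, at 94.7 and 70.7 CPM, and their lowest in erythroid-like cells, at 13.3 and 10.4 CPM. Uggt1, the folding sensor that puts glucose back on misfolded proteins, ranged from 6.14 to 41.98 CPM and Man1b1 from 6.37 to 16.9 CPM, with the same highest and lowest classes. CPM counts globins in the total, and these took 35.7% to 49.6% of erythroid-like UMIs, so every other gene reads lower there. The part of this in the lowest class was not tested. Mgat2, which starts the second main branch, reached 95.8 CPM in arterial-like cells, and the mannosidase Man1a2 89.2 CPM. In cells under 5% mitochondrial UMIs the arterial-like against venous-like difference turned to -0.11 for Mgat2 and -0.10 for Prkcsh, and was 0.04 for Man1a2. St3gal3 stayed below 5 CPM in every class, highest in mesenchymal-like cells at 4.86 CPM. Slc35c1 reached 9.999 CPM, in megakaryocyte-like cells.

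Arterial-like cells were compared with venous-like cells. In arterial-like cells 21 of 35 tested members were higher and 6 lower, while 68.3% of all genes tested were called in this contrast (34.6% higher and 33.7% lower). The members' total share was therefore near the background, and the split was towards higher: the median log2 difference was 0.29 for the members and 0.01 for all genes tested. Every step from trimming to galactose had more higher than lower calls.

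St3gal2, which caps galactose with sialic acid, showed the largest difference. Its level was 27.5, 25.0, 27.7 and 27.1 CPM in arterial-like cells and 8.40, 7.14, 8.56 and 6.79 CPM in venous-like cells. The groups did not overlap, and the log2 difference was 1.62 (SE 0.11, adjusted p = 7.6e-18). St3gal5, which makes the ganglioside GM3, was 0.75 higher, and St6gal1, an N-glycan sialyltransferase, 0.42 higher. St3gal6, at -0.63, and St3gal4, at -0.31, were lower, St3gal4 in 3 of 4 libraries.

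Of 7 galactose genes 5 were higher in arterial-like cells and 0 lower, and of 2 core fucose genes 1 was higher and 0 lower. B4galt1 was at 53.6, 53.0, 50.1 and 49.8 CPM in arterial-like and at 20.5, 23.3, 22.7 and 20.4 CPM in venous-like cells, a log2 difference of 1.04 (SE 0.0778, adjusted p = 2.4e-16) without overlap. B4galt6, which serves glycolipid synthesis, differed by 1.12 and Fut8, the core fucosyltransferase, by 1.12. Slc35a2, the Golgi UDP-galactose transporter, differed by 0.56.

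Branching genes moved in both directions. Mgat5, which starts the branch that galectins read best, was 0.66 higher, and Mgat4a was 0.97 higher on few UMIs. Mgat4b, the more abundant enzyme of the same branch as Mgat4a, was lower: 94.0, 69.7, 73.8 and 68.7 CPM in arterial-like against 140, 107, 131 and 108 CPM in venous-like cells, a log2 difference of -0.86 (SE 0.0552, adjusted p = 1.0e-18). Within each genotype the first replicate was the higher in both classes.

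Sialic acid supply was split. Cmas was 0.76 higher in arterial-like cells and Slc35a1, the Golgi CMP-sialic acid transporter, 0.29 higher. Gne, the rate-limiting first enzyme of sialic acid synthesis, was at -0.77 and Nans at -0.86. A refit on cells under 5% mitochondrial UMIs rested on 4, 73, 24 and 24 arterial-like cells. It called 10 of 33 tested members (8 higher and 2 lower), or 30.3%, and 33.8% of all genes. St3gal2 then had a log2 difference of 1.91, Fut8 1.04, B4galt1 1.08 and Mgat4b -0.94, while B4galt6, at 0.57, St6gal1, at 0.27, and Gne, at -1.03, were not called. Mesenchymal markers summed to 70.2 to 124 CPM in arterial-like and 16.9 to 32.4 CPM in venous-like cells (0 of 14 at 0 in either class), and 1924 to 2760 CPM in mesenchymal-like cells. Neural markers summed to 819 to 1136 CPM and 244 to 283 CPM (2 of 11 at 0 in arterial-like cells). Only 2 of the 11 reached 5 CPM in each arterial-like cluster, and 2 in the venous-like cluster. The part of either list in the result was not tested.

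**Figure D2:**
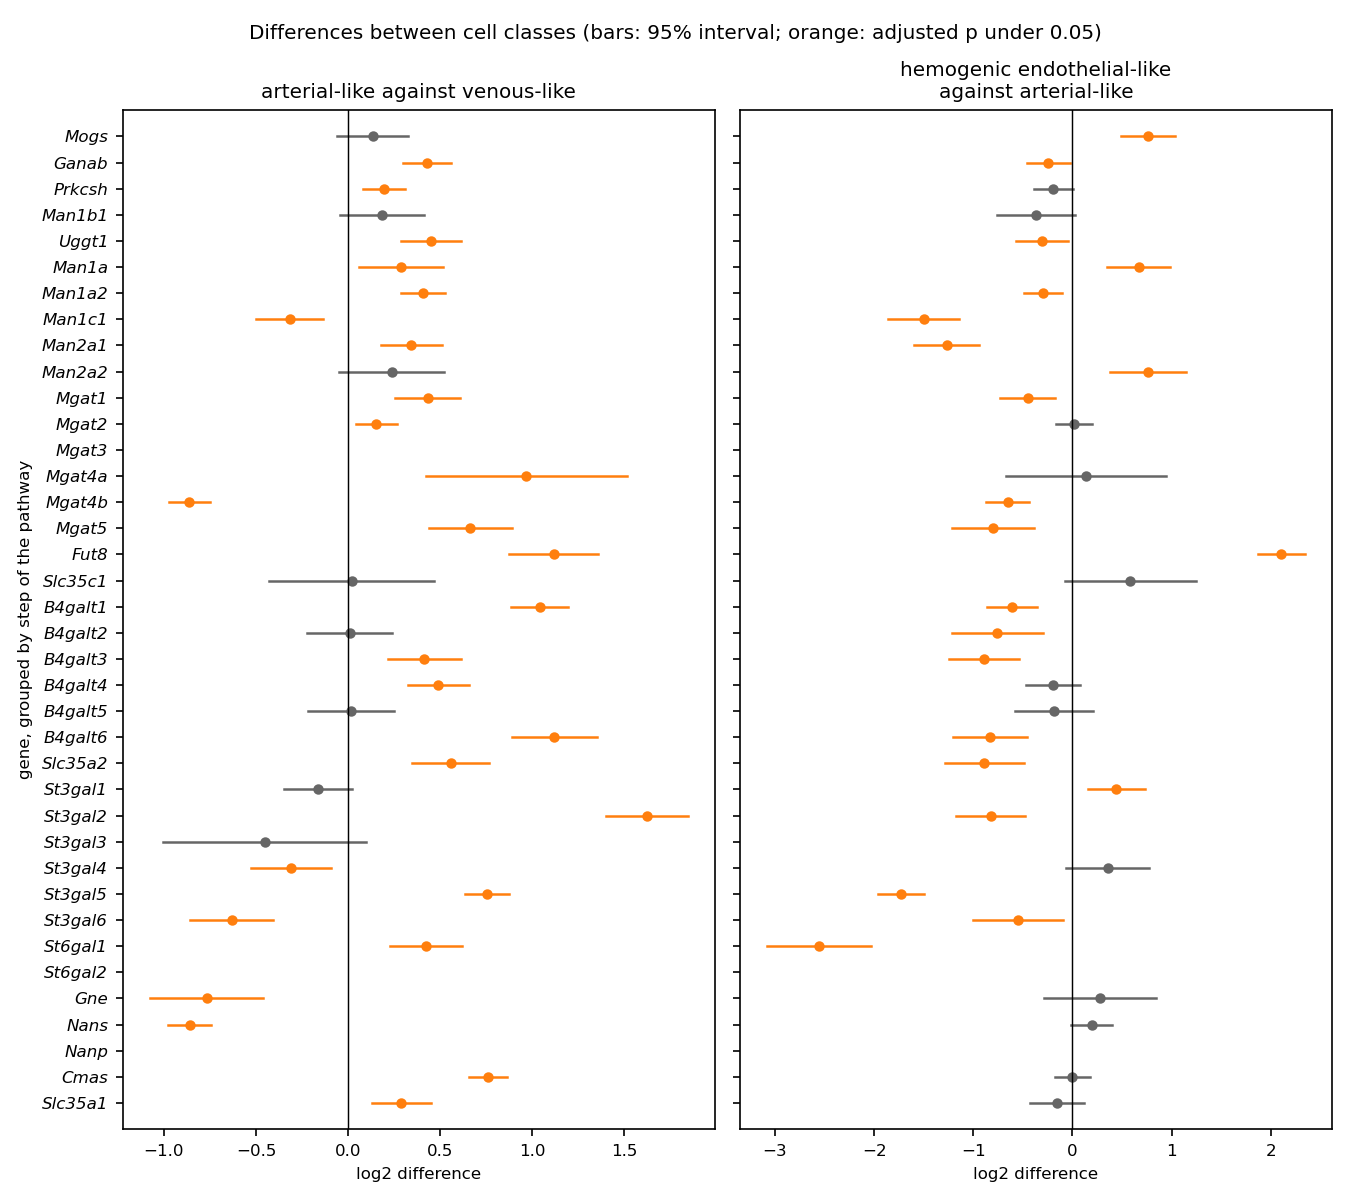
Log2 difference of each tested member (points) with its 95% interval (bars) in arterial-like against venous-like cells (left) and hemogenic endothelial-like against arterial-like cells (right). Orange marks an adjusted p under 0.05: on the left most lie above 0, with St3gal2 farthest, and on the right Fut8 is far above 0 and St6gal1 far below.

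Hemogenic endothelial-like cells were compared with arterial-like cells, the endothelium they are thought to arise from. Here 5 of 34 tested members were higher and 17 lower, while 62% of all genes tested were called (30.8% higher and 31.1% lower). The median log2 difference was -0.27 for the members and 0.00 for all genes tested. This contrast shares the arterial-like sums with the one above, so a gene high in arterial-like cells enters both.

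Fut8 rose most. It stood at 51.2, 98.9, 62.9 and 97.9 CPM in hemogenic endothelial-like cells and at 14.7, 23.9, 16.3 and 20.4 CPM in arterial-like cells. The groups did not overlap, and the log2 difference was 2.11 (SE 0.117, adjusted p = 1.4e-15), from 1.67 to 2.32 over 12 alternatives. In both genotypes replicate 2 was the higher in hemogenic endothelial-like cells, as were the summed myeloid markers, at 154, 342, 185 and 450 CPM. Megakaryocyte markers, the other Fut8-rich class, summed to 194 to 230 CPM in hemogenic endothelial-like cells, 205 to 237 CPM in arterial-like and 6788 to 22901 CPM in megakaryocyte-like cells. Of the 11 megakaryocyte markers 6 reached 5 CPM in the hemogenic endothelial-like cluster and 2 in each arterial-like cluster. The part of either marker list in the result was not tested.

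Sialyltransferases moved apart in hemogenic endothelial-like cells, with 1 of 6 tested called higher and 4 lower. St6gal1 was at 0, 2.89, 3.66 and 6.41 CPM against 30.4, 21.005, 26.7 and 21.7 CPM in arterial-like cells, a log2 difference of -2.56 (SE 0.256, adjusted p = 6.1e-10). St3gal5 was lower as well, at -1.73, and St3gal2 at -0.82. St3gal1, which prefers O-glycans, was higher, at 0.44. St3gal4 was not called: it ranged from 10.4 to 53.9 CPM over the hemogenic libraries, and the highest value came from WT replicate 1, which held 11 of these cells.

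Galactose genes were called lower in 5 of 7 cases and higher in 0, with B4galt3 at -0.89 and B4galt1 at -0.61. Among mannosidases, Man1c1 was at -1.50 and Man2a1, which removes the last mannoses before complex branches are made, at -1.27. Man1a, at 0.67, and Man2a2, the close relative of Man2a1, at 0.76, were higher. Mogs, the glucosidase that opens trimming, was higher by 0.76, and no gene of sialic acid supply was called. Endothelial markers summed to 1897 to 2339 CPM in hemogenic endothelial-like and 6804 to 7639 CPM in arterial-like cells, mesenchymal markers to 136 to 305 and 70.2 to 124 CPM, and their part was not tested. With the sums thinned to equal depth 8 members were called of 24 tested (33.3%, against 49.4% of all genes). With cells under 5% mitochondrial UMIs, 3, 42, 40 and 14 of the hemogenic class, it was 7 of 18 (38.9%, against 51.1%). Under the latter Fut8 gave 2.32, St3gal5 -2.19 and Man2a1 -1.47, and St6gal1 could not be tested.

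**Figure D3:**
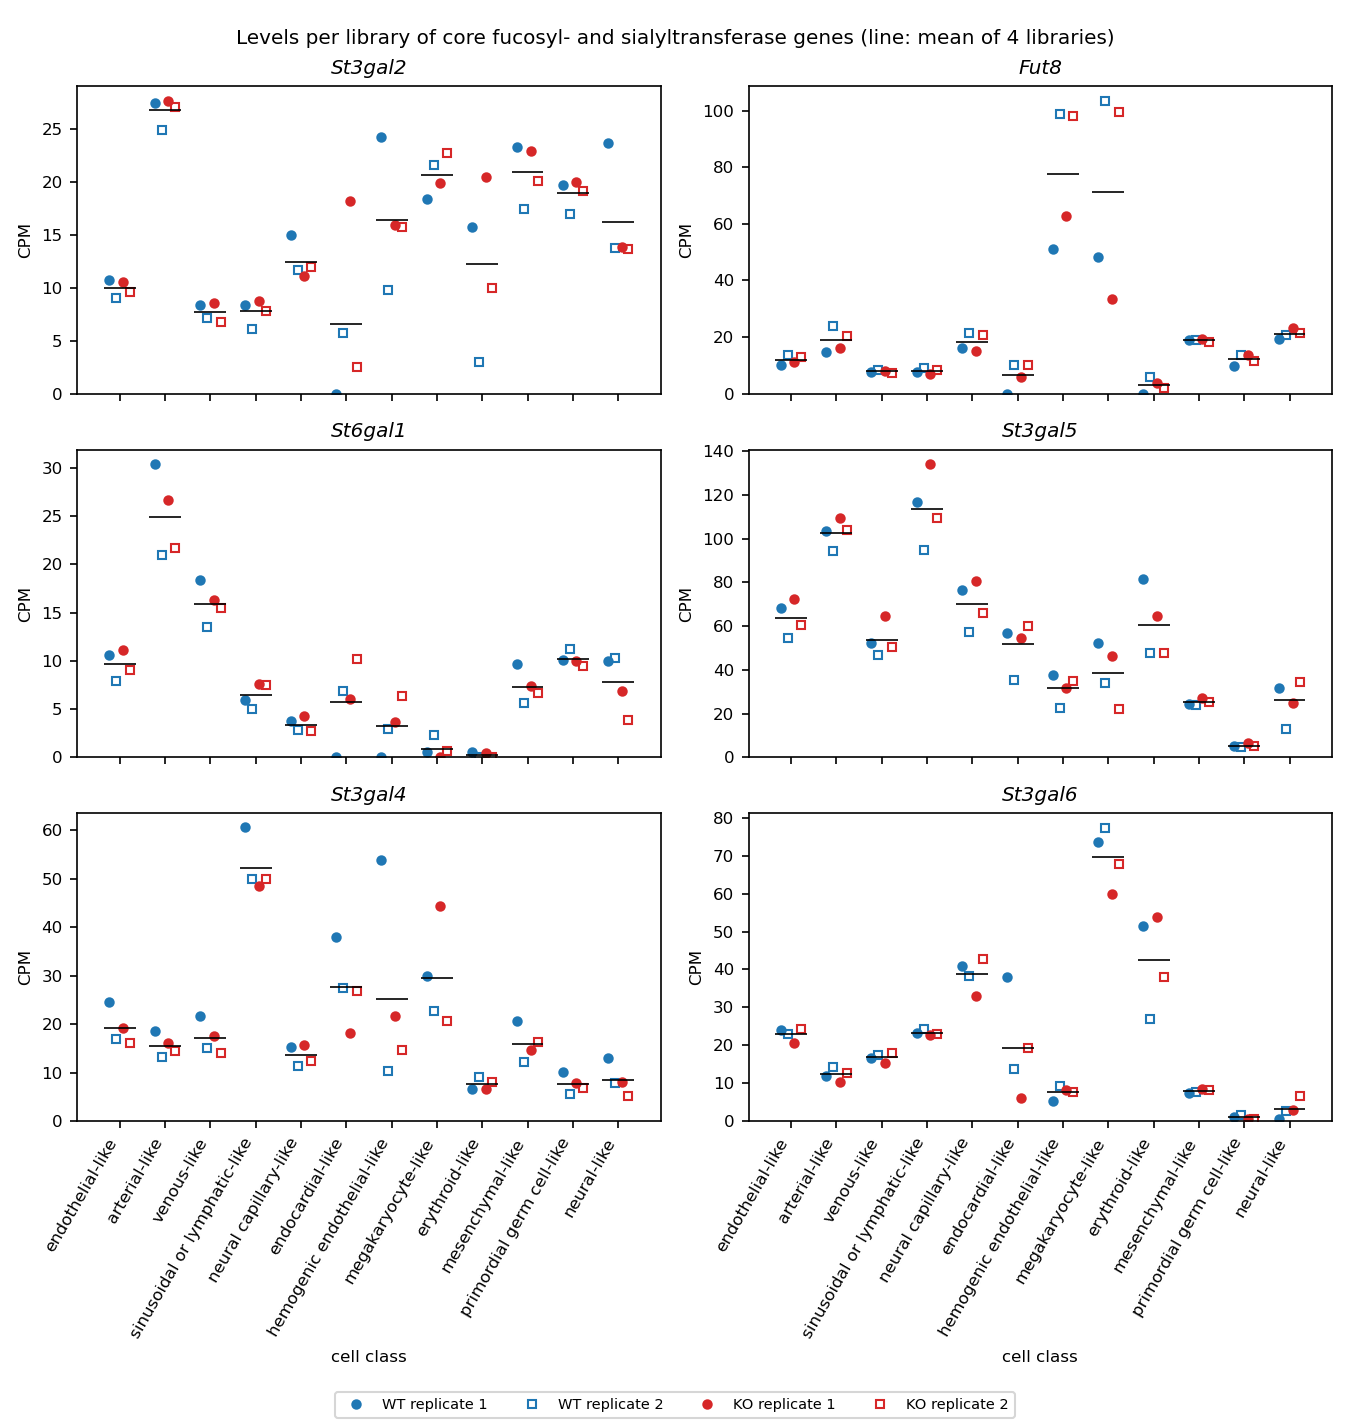
Level in CPM (y axis, linear) of St3gal2, Fut8, St6gal1, St3gal5, St3gal4 and St3gal6 in each class (x axis) for each library, WT in blue and KO in red, with replicate 1 filled and replicate 2 open and the mean of 4 libraries as a line. By CPM, which globins lower in erythroid-like cells, St3gal2 and St6gal1 peak in arterial-like cells and St3gal4 and St3gal5 in sinusoidal or lymphatic-like cells. WT and KO points lie together in the large classes.

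Sinusoidal or lymphatic-like cells, led by Oit3, Ehd3 and Lyve1, were compared with venous-like cells. Of 35 tested members 11 were higher and 5 lower, with 52.4% of all genes called (26.9% higher and 25.5% lower). Of 7 sialyltransferases tested 3 were higher and 2 lower, and of 5 Golgi mannosidases 3 were higher and 2 lower. St3gal4, which caps N-glycans and selectin ligands, was at 60.7, 49.9, 48.4 and 49.8 CPM against 21.7, 15.02, 17.5 and 13.99 CPM, without overlap (log2 difference 1.65, SE 0.0722, adjusted p = 6.0e-18). St3gal5 was 1.08 higher and St3gal6 0.46 higher. St6gal1 was at 5.90, 5.0003, 7.56 and 7.53 CPM against 18.4, 13.5, 16.3 and 15.5 CPM, a log2 difference of -1.31, and St3gal1 was at -0.47. The mannosidase Man1a was 0.90 higher, Mogs 0.68 and Mgat1, which starts all complex branches, 0.56. St3gal2 was at -0.0014 with SE 0.128 and was not called. Myeloid markers summed to 68.3 to 126 CPM in these cells and 4.28 to 11.2 CPM in venous-like cells, and their part in the result was not tested.

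Neural capillary-like cells were set beside the other endothelium by level only. Their Man1c1, at 60.2 ± 8.55 CPM (SD, n = 4), and Man2a1, at 51.2 ± 5.27, were the highest class means of these mannosidases. St3gal6 was at 40.9, 38.2, 33.0 and 42.8 CPM, above its 15.4 to 17.98 CPM in venous-like cells in every library. St6gal1 was low, at 3.74, 2.81, 4.29 and 2.72 CPM. B4galt5, which makes lactosylceramide, was at 29.9, 24.9, 24.0 and 26.4 CPM against 11.2 to 14.0 CPM in venous-like cells.

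Megakaryocyte-like cells, led by Pf4, Ppbp and Thbs1, carried a different set from endothelium. Of 35 tested members 8 were higher and 14 lower than in endothelial-like cells, with 45.3% of all genes called (17.6% higher and 27.7% lower). Fut8 was at 48.3, 104, 33.3 and 99.5 CPM against 10.1, 13.6, 11.3 and 12.9 CPM, a log2 difference of 2.43 (SE 0.205, adjusted p = 3.6e-09). The transporter that brings GDP-fucose to the Golgi, Slc35c1, was 1.37 higher. Mogs was 1.73 higher, at 132, 40.9, 109 and 45.6 CPM, with both first replicates above both second ones.

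Sialic acid genes in megakaryocyte-like cells moved in both directions. St3gal6 was at 73.6, 77.3, 59.9 and 67.7 CPM, 1.49 above endothelial-like cells, and Cmas, at 135, 288, 255 and 345 CPM, was 1.33 above. St6gal1 was near absent, at 0.575, 2.27, 0 and 0.691 CPM, with a log2 difference of -3.54. Among galactosyltransferases B4galt1 was 0.52 higher, and the others called were lower: B4galt2 was at -3.26, B4galt6 at -2.74, B4galt4 at -2.72 and B4galt5 at -2.10. Man1c1, at -3.25, and Mgat4b, at -2.19, were lower too. Thinned to equal depth, 10 members were called of 22 tested (45.5%, against 45.6% of all genes).

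Erythroid-like cells gave 26 calls, 8 higher and 18 lower of 35 tested, with 53.9% of all genes called (20.5% higher and 33.4% lower). Embryonic and other globins took 35.7% to 49.6% of their UMIs, against at most 0.0179% in endothelial-like cells. Scaled to total UMIs, 2 members were higher and 28 lower, a split given without the share of all genes called at that scale. The median of all genes moved from -0.46 with the main scale to -1.67 with total scaling. St3gal6 was higher under both, by 2.24 and, with total scaling, 0.995, and stood at 51.5, 27.0, 53.8 and 37.9 CPM. St3gal2 was higher by 1.76, or 0.55 with total scaling. St3gal5, at 81.8, 47.9, 64.7 and 47.9 CPM, was 1.17 higher by the main scale and -0.06 with total scaling, and Cmas 1.22 and -0.02. Of 5 Golgi mannosidases 4 were lower and 0 higher, with Man1c1 at -3.45, and of 5 branching genes 4 were lower and 0 higher, with Mgat4b at -2.64. B4galt1 was at -2.27. St3gal3 had 0 of 4773867 UMIs. With total scaling this is at least 4.86-fold below its 3.06 CPM in endothelial-like cells, at a limit of 3 UMIs over the class. The limit by the main scale was not computed. Man2a2, Mgat4a, Mgat5, B4galt6 and St6gal1 rested on 1 to 3 erythroid UMIs each. Thinned to equal depth, 9 members were called of 13 tested (69.2%, against 58.2% of all genes).

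Mesenchymal-like cells had 8 of 37 tested members higher and 24 lower than endothelial-like cells, with 72.9% of all genes called (35.9% higher and 36.9% lower). With total UMI scaling the split was 11 and 19, given here without the share of all genes called at that scale. The median of all genes moved from 0.00 to 0.23. Mgat3 was at 7.60, 7.46, 6.99 and 5.04 CPM against 0.0485 to 0.216 CPM in endothelial-like cells (log2 difference 5.996, SE 0.352, adjusted p = 2.1e-10). St6gal2, the restricted relative of St6gal1, was at 3.30, 3.50, 1.72 and 1.21 CPM, 5.45 above. St3gal2 was 0.85 higher, while Man1c1, at -3.31, Mgat4b, at -2.38, St3gal6, at -1.74, and St3gal5, at -1.60, were lower. Of the 6 branching genes 1 was higher and 4 lower.

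Primordial germ cell-like cells had 5 of 37 tested members higher and 24 lower than endothelial-like cells, with 80.5% of all genes called (36.6% higher and 44% lower). Every Golgi mannosidase was lower. Man1a was at 0.773, 0.326, 0.625 and 0.491 CPM against 18.2, 15.5, 15.8 and 14.9 CPM. Its log2 difference was -5.11 (SE 0.257, edgeR adjusted p = 8.8e-87), and so small a p-value rests on spread pooled over genes. Man1c1 was at -4.89 and Man2a1 at -4.29. St3gal6, at -4.67, St3gal1, at -4.65, St3gal5, at -3.70, and Gne, at -3.23, were low as well. St3gal2, at 19.7, 16.96, 20.005 and 19.1 CPM, was 0.78 higher, Mgat4a 1.40 and B4galt6 0.72. The 4 contrasts against endothelial-like cells share its sums.

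The make-up of the sialyltransferase family differed between classes. St3gal5 gave 49.2% ± 1.23 (SD, n = 4) of the family's UMIs in arterial-like cells, 50.8% ± 3.81 in sinusoidal or lymphatic-like and 10.96% ± 1.43 in primordial germ cell-like cells. St3gal2 gave 12.8% ± 0.242 in arterial-like, 5.59% ± 0.219 in venous-like and 38.5% ± 1.12 in primordial germ cell-like cells, the last while the family's sum fell to 49.2 CPM. In hemogenic endothelial-like cells St3gal1, at 28.8% ± 3.81, and St3gal5, at 26.6% ± 3.86, lay within their spread of each other, and in megakaryocyte-like cells St3gal6 led with 34.7% ± 3.78. Among the galactosyltransferases B4galt1 gave 62.3% ± 6.36 of the family in megakaryocyte-like and 24.1% ± 2.82 in endothelial-like cells.

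**Figure D4:**
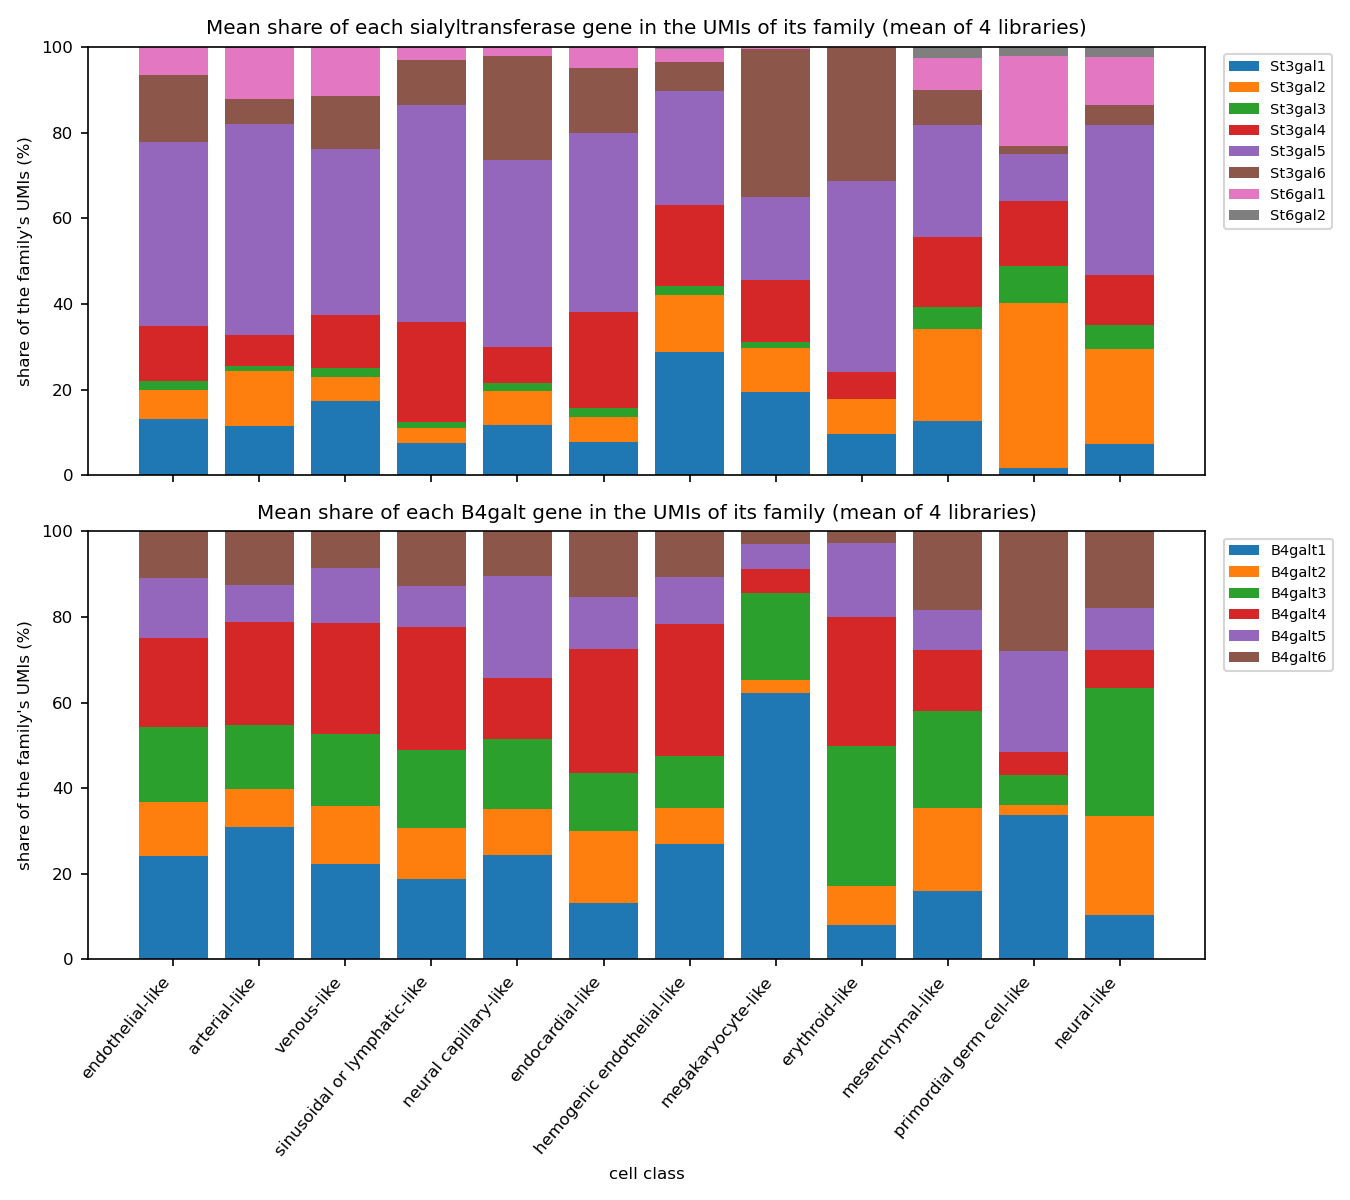
Share of each sialyltransferase gene (top) and each B4galt gene (bottom) in the UMIs of its family (y axis, percent, mean of 4 libraries) by cell class (x axis). St3gal5 is the widest band in arterial-like, venous-like and sinusoidal or lymphatic-like cells, and St3gal2 in primordial germ cell-like cells. B4galt1 is the widest of its family in classes such as arterial-like and megakaryocyte-like cells.

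St3gal2, the mouse counterpart of the zebrafish target, had its highest class mean by CPM in arterial-like cells, at 26.8 CPM, and its lowest in venous-like, at 7.72 CPM. CPM rests on total UMIs, of which globins took 35.7% to 49.6% in erythroid-like cells. The rank of that class for St3gal2 therefore depends on the scale, and the classes were not ranked by the main scale. Over 10 class means, the genes with the most similar profile among 10641 were Tmem230 (Pearson r = 0.875), Sppl2a (0.867) and 0610030E20Rik (0.851). The class means share their libraries, so these values describe likeness only.

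Other genes of glycosylation were counted from lists chosen with the members, and are read against the shares of all genes called (30.8% higher and 31.1% lower in hemogenic endothelial-like against arterial-like cells, 34.6% and 33.7% in arterial-like against venous-like). In hemogenic endothelial-like against arterial-like cells, 11 of 12 oligosaccharyltransferase genes, whose complex transfers the precursor to protein, were lower and 0 higher. The difference of Krtcap2, a subunit, was -1.08. Of 13 genes of glycoprotein folding and quality control 11 were lower and 0 higher, with the oxidoreductase Pdia3 at -0.94. In arterial-like against venous-like cells 11 of these 13 were higher and 1 lower, with Erlec1 at 1.03, and 9 of 12 tested genes of lysosomal glycan removal were higher and 1 lower. Of 23 precursor assembly genes 8 were higher and 5 lower there.

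Other sialic acid and reader genes also differed between classes. St8sia6, a sialyltransferase that acts on sialic acid itself, was at 18.1 ± 2.90 CPM (SD, n = 4) in arterial-like and 0.173 ± 0.0971 in venous-like cells, a log2 difference of 6.46. St8sia1, which makes ganglioside GD3, went the other way, at 2.34 ± 0.727 and 20.7 ± 1.66 CPM, a difference of -3.315. Lgals9, a galectin that reads branched N-glycans, was at 63.9 ± 14.4 CPM in hemogenic endothelial-like and 2.67 ± 1.10 in arterial-like cells, a difference of 4.69. Selp, the selectin P-selectin, was 4.42 higher there. In primordial germ cell-like cells the fucosyltransferase Fut9, which makes the SSEA1 epitope, was 6.81 above endothelial-like cells.

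KO was then compared with WT within each class, the question the series addresses. The 3′ tags do not read the mature microRNA. Its host transcript F630028O10Rik was at 0, 0.0331, 0.618 and 0.708 CPM in endothelial-like cells, a log2 difference of 4.85 (adjusted p = 0.0314), and at 2.70, 10.4, 39.3 and 60.6 CPM in hemogenic endothelial-like cells, 2.44 higher in KO (adjusted p = 0.00794). The libraries labelled KO therefore differ at this locus from those labelled WT.

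None of the 38 genes was called in KO against WT. By edgeR, 0 of 35 tested members passed in endothelial-like cells, where 0.144% of all genes did, and 0 of 35 in arterial-like (0.0272% of genes), 0 of 35 in venous-like (0.0513%) and 0 of 34 in sinusoidal or lymphatic-like cells (0.0555%). It was 0 of 35 in neural capillary-like (0.0332% of genes), 0 of 32 in hemogenic endothelial-like (0.0327%), 0 of 37 in mesenchymal-like (0.00824%), 0 of 27 in primordial germ cell-like (0.125%) and 0 of 30 in neural-like cells (0.0107%). Almost no gene passed in any class, so a count of 0 is near the background. DESeq2 also called 0 members in each class. Megakaryocyte-like, erythroid-like and endocardial-like cells fell under the limit of 20 cells per library for this test, with as few as 16, 12 and 4. For hemogenic endothelial-like cells the limit was set at 10, and WT replicate 1 held 11 of them.

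The width of the intervals differed by class. In endothelial-like cells the members' log2 differences ran from -0.21 to 0.14, and for all 35 the 95% interval lay within 1 log2 unit of 0. In hemogenic endothelial-like cells the differences ran from -0.86 to 0.51, and 21 of 32 intervals lay within 1 log2 unit. Over all 9 classes 256 of 300 did.

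St3gal2 was at 10.8, 9.01, 10.6 and 9.62 CPM in endothelial-like cells, a log2 difference of 0.05 between KO and WT (95% interval -0.31 to 0.41, edgeR adjusted p = 0.9998). In arterial-like cells it differed by 0.10 (-0.33 to 0.52). In hemogenic endothelial-like cells it was at 24.3, 9.83, 16.0 and 15.7 CPM, and the KO values lay between those of the WT libraries. The difference was 0.24 with an interval of -0.61 to 1.09, and -0.57 without WT replicate 2. Alg2, which is not one of the 38, differed by 0.12 in endothelial-like and 0.37 in hemogenic endothelial-like cells, and was not called either.

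B4galt1 and Mgat5, the members whose 3′UTR holds AACTGAC, were not called. B4galt1 was at 23.5, 26.6, 25.2 and 26.1 CPM in endothelial-like cells and at 21.6, 35.8, 29.9 and 36.1 CPM in hemogenic endothelial-like cells. Mgat5 was at 11.7, 11.99, 10.4 and 12.5 CPM and at 16.2, 7.52, 8.65 and 14.6 CPM. WT and KO values overlapped in each case, and the log2 differences in endothelial-like cells were 0.05 (-0.28 to 0.38) for B4galt1 and -0.03 (-0.39 to 0.32) for Mgat5.

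Without adjustment, 4 of the 300 tests of members had p under 0.05, while 1.46% to 3.23% of all genes did by class. The share of all genes was 1.76% in endothelial-like, 2.47% in arterial-like, 1.78% in venous-like, 1.66% in sinusoidal or lymphatic-like, 1.46% in neural capillary-like and 2.77% in hemogenic endothelial-like cells, where no member was among them. It was 2.43% in mesenchymal-like, 3.23% in primordial germ cell-like and 2.31% in neural-like cells. The 4 were St6gal2 in mesenchymal-like cells (-1.11, unadjusted p = 0.031), Mogs in neural-like cells (0.65, 0.0224), and Mogs (0.84, 0.017) and Man1b1, the first mannosidase of trimming (-0.72, 0.0174), in primordial germ cell-like cells. None passed adjustment, although 1 member was called in primordial germ cell-like cells without KO replicate 2, where 60 of 10092 genes were. No gene of the other 7 glycosylation lists was called either.

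**Figure D5:**
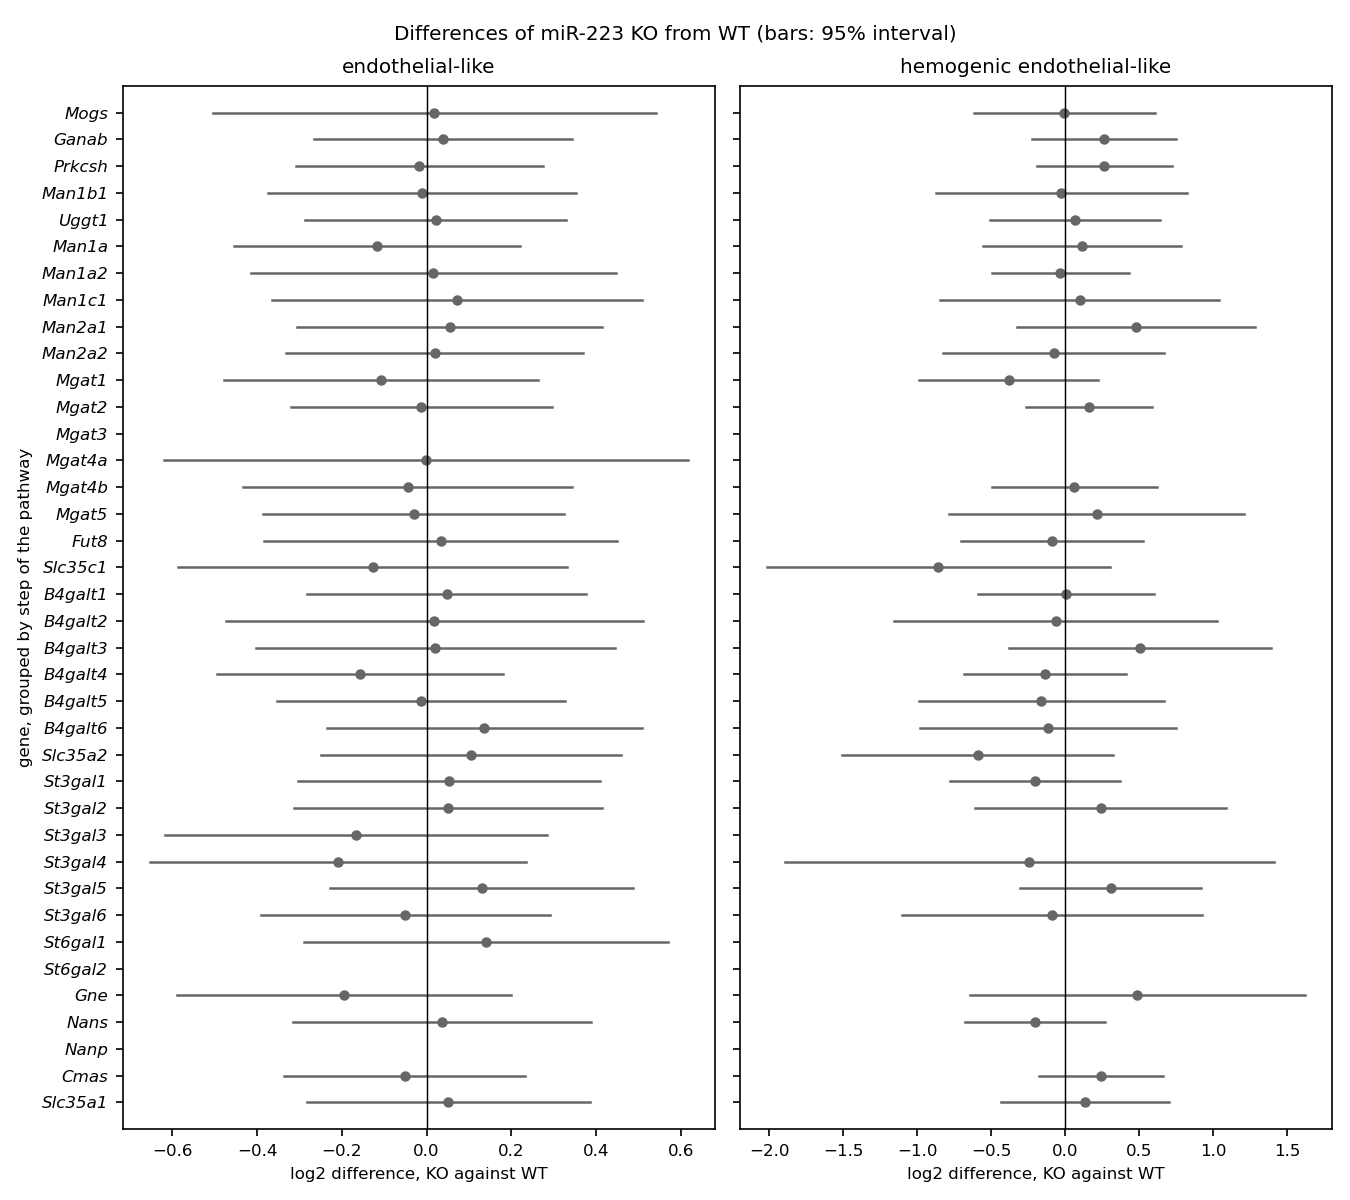
Log2 difference of KO from WT for each tested member (points) with its 95% interval (bars) in endothelial-like cells (left) and hemogenic endothelial-like cells (right). Every interval on both sides includes 0, and the intervals are wider on the right, where libraries held 11 to 133 cells.

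The genotype effect was also compared between classes by an interaction term. In all 7 contrasts 0 members were called. For arterial-like against venous-like cells 0 of 35 passed (0% of all genes), for hemogenic endothelial-like against arterial-like 0 of 34 (0.0744%), and for sinusoidal or lymphatic-like against venous-like 0 of 35 (0.00865%). Against endothelial-like cells it was 0 of 35 for megakaryocyte-like (0.0504% of genes), 0 of 35 for erythroid-like (0.142%), 0 of 37 for mesenchymal-like (0.126%) and 0 of 37 for primordial germ cell-like cells (0.12%). Without KO replicate 2, 1 member was called for sinusoidal or lymphatic-like and 2 for mesenchymal-like cells, while calls over all genes went from 1 to 94 and from 19 to 227. Without adjustment, 1 to 5 of 34 to 37 members had an edgeR p under 0.05 by contrast, against 2.92% to 5.69% of all genes. The contrasts share class sums, so hits in several of them are not independent. Cmas had an unadjusted p under 0.05 in 4 of the 7 contrasts. Its lowest was 0.00182 for sinusoidal or lymphatic-like cells (difference 0.41, adjusted p = 0.762). Its sign was not constant, at 0.67 in megakaryocyte-like and -0.61 in erythroid-like cells. Those 2 classes held as few as 16 and 12 cells in a library, under the limit used for KO against WT.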

How the data were processed

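Single-cell libraries from 2 WT and 2 KO samples were analysed. The authors deposited UMI counts per gene and cell barcode, made with Cell Ranger 3.1.0 per the file headers. Seurat 4 is named in the submitters' processing notes. The genome build, annotation and strand setting were not stated in the sources at hand, so overlapping and antisense genes cannot be told apart. Barcodes passed with 1000 or more genes and a mitochondrial share below 10%, and 1659 likely doublets, scored against simulated ones (0.8% per 1000 barcodes), were removed, leaving 19177 of 31521 barcodes. Clusters came from 2000 variable genes, chosen without 140 held-out genes (the members and other glycan lists) and without mitochondrial genes. With 40 principal components, 20 neighbours and Leiden resolution 1 (leidenalg 0.10.2) this gave 24 clusters. The limits of the naming rule were set after seeing the clusters. The members and gene lists were chosen with earlier results of these data known.

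Raw counts were summed per library and class. edgeR 4.0.16 (quasi-likelihood, robust, TMM scaling, filterByExpr) tested class contrasts with library as a block, KO against WT without it, and their interaction, with Benjamini-Hochberg adjustment over all genes tested. KO against WT needed 20 cells per library, or 10 in hemogenic endothelial-like cells. Any of the 38 members could be named, in class contrasts those that passed by size of difference, in KO against WT those with an unadjusted p under 0.05, and St3gal2, Alg2 and F630028O10Rik whatever their test. Of each other list up to 4 passing genes with the largest difference could be named. In data simulated for KO against WT, 71.7% of genes changed by 1 log2 unit were recovered in endothelial-like cells (14441 genes) and 44.7% in hemogenic endothelial-like cells (8926 genes). Limits and intervals cover counting or library error only. Alternatives were DESeq2 1.42.0, other scaling and filters, thinned sums, doublets kept, cells under 5% mitochondrial UMIs, each library left out and the replicate block. Total UMI scaling was added after seeing the data.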

Additional observations from a re-analysis of the deposited data

How the results depend on the processing

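Of 253 counts of called members under an alternative, 244 stayed within 1.5 times the main count and 9 did not. With cells under 5% mitochondrial UMIs, 10 members were called in arterial-like and 7 in hemogenic endothelial-like cells. With sums thinned to equal depth it was 8 in hemogenic endothelial-like, 10 in megakaryocyte-like and 9 in erythroid-like cells. Fewer genes were tested in these alternatives. For the genotype effect in sinusoidal or lymphatic-like cells 1 of 38 was called with no filter on low counts, against 19 of 19179 genes (0.0991%). Leaving out 1 library gave 0 to 1 called there, 0 to 2 for the genotype effect in mesenchymal-like cells and 0 to 1 for KO against WT in primordial germ cell-like cells. The cause was not tested.

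Of 4516 values of single genes, 4197 kept direction and call, 283 lost the call, 5 gained it and 31 changed sign. Leaving out 1 library, KO against WT of St3gal2 ran from -0.067 to 0.17 in endothelial-like, -0.13 to 0.17 in venous-like, -0.57 to 0.66 in hemogenic endothelial-like and -0.053 to 0.30 in mesenchymal-like cells. Alg2 ran from -0.028 to 0.48 in venous-like, -0.071 to 0.11 in sinusoidal or lymphatic-like, -0.0038 to 0.30 in neural capillary-like, -0.34 to 0.70 in hemogenic endothelial-like and -0.024 to 0.61 in primordial germ cell-like cells. St3gal2 in mesenchymal-like cells was at -0.014 with doublets kept and -0.012 with thinned sums. Alg2 in sinusoidal or lymphatic-like cells was at -0.00063 with thinned sums and -0.31 in cells under 5% mitochondrial UMIs. With those cells, Prkcsh (-0.10), Mgat2 (-0.11) and Edem3 (-0.20) changed sign in arterial-like cells and Man1a2 (0.10) in hemogenic endothelial-like cells. Total UMI scaling turned Rpn1 (0.0088) in arterial-like, Slc35a2 (0.0088) in mesenchymal-like, and Nans (-0.88), St3gal5 (-0.064), Mogs (-0.48), Cmas (-0.019), St3gal1 (-0.30) and Lgals1 (-0.36) in erythroid-like cells. Uggt1 in primordial germ cell-like cells was at 0.046 with thinned sums.

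The labels give both genotypes replicates 1 and 2 without saying what the numbers share. Deviations of same-numbered libraries correlated at r = 0.547 over 7554 genes in endothelial-like cells. With the replicate number as a block, 0 members were called in KO against WT in each of 9 classes, while calls over all genes went from 21 to 79 in endothelial-like cells, and St3gal2 in venous-like cells was at -0.0029. DESeq2 called 59 genes there in endothelial-like cells against 21 by edgeR.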
